A study of Mus musculus with 6 samples.

Results

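The interferon regulatory factors (IRFs) are transcription factors that share a DNA-binding domain built around conserved tryptophans and that bind repeats of the letters GAAA. Some are held inactive in the cytoplasm until sensors of foreign nucleic acid trigger them (IRF3, IRF5, IRF7), some act in the response to interferon itself (IRF1, IRF2, IRF9), and others direct the fate of blood cells together with the ETS factor PU.1 (IRF4, IRF8). In hematopoietic stem cells (HSC), from which all blood cells descend, IRF2 is known to restrain the interferon response and IRF8 to prime the monocyte and dendritic cell lineages. The genes described here are Irf1, Irf2, Irf3, Irf4, Irf5, Irf7, Irf8 and Irf9, chosen by symbol. All 8 were found among the 24062 genes of the table, and 7 of them passed the filter on low values (a mean of at least 10 reads per library).

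RNA was sequenced from HSC sorted from mice of 2 genotypes, with 3 libraries per genotype. The CDKO mice were Nr4a1 fl/fl, Nr4a3-/- and carried the construct labelled Rosa26-ERt2. The Control mice were Nr4a1 fl/fl and Nr4a3-/- without that construct, so both groups lacked Nr4a3 and both carried floxed Nr4a1. Both groups received tamoxifen at 120 mg per kg on 4 days to excise Nr4a1 where the construct was present, and HSC were sorted on day 5. Rosa26 is by background a locus active in most cell types, so excision need not be restricted to HSC. Each library was a pool of 3 to 5 mice. The age of the mice and the surface markers of the sort are not given in the sources used here. The construct and the loss of Nr4a1 came together and cannot be told apart, and no batch is named in the labels.

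Libraries held between 32863805 and 42772261 counted reads, and the levels given are reads per 1000000 counted reads (CPM). With 0 reads a gene can still be at up to 0.0701 to 0.0913 CPM, depending on the library (3 counts, counting error only). Nr4a1 was at 8.52, 9.77 and 9.12 CPM in CDKO pools, against 15.2, 13.4 and 12.9 CPM in Control pools (log2 difference -0.55, limma adjusted p = 0.00204), and Nr4a3 had 0 reads in every library. The related gene Nr4a2 had a log2 difference of similar size, -0.57, but did not pass (limma adjusted p = 0.0547). It had a mean of 2.43 CPM in CDKO and 3.86 CPM in Control pools. Counts per gene do not show which exons were left. Of 12 HSC markers tested 5 rose and 6 fell, where 31.1% of all genes tested rose and 35.2% fell. The summed level of these markers was 4573 to 4767 CPM in CDKO and 4990 to 5235 CPM in Control pools. Kit, the stem cell factor receptor gene, fell and was at 1570 to 1704 CPM in CDKO pools and 1972 to 2090 CPM in Control pools. Fgd5 also fell (log2 difference -0.74), as did Ctnnal1, at a mean of 42.2 CPM in CDKO and 85.3 CPM in Control pools, while Ly6a and Tek rose by 0.80 and 0.78 on the log2 scale. In bulk RNA, fewer cells of a type and less RNA per cell cannot be told apart. Differences below are of log2(CPM + 1), CDKO minus Control, from limma fitted to all 13732 genes that passed the filter, with a Benjamini-Hochberg adjusted p under 0.05 as the threshold. This scale understates the change of genes with low CPM.

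Stretches upstream of the transcription start are shown for 4 genes, Irf7 and Irf8 because their levels changed most and Irf1 and Irf2 because letters recognised by interferon-activated factors lie there. They are RefSeq sequences of build GRCm38.p6, the assembly also called mm10, written 5′ to 3′ on the strand of the gene. Capitals mark any match to the core of the interferon-stimulated response element (GAAANNGAAA), to the gamma-activated site (TTCNNNGAA) or to the composite element of PU.1 with IRF4 or IRF8 (GGAANNGAAA), searched on both strands. The Irf7 stretch (chr7:141266501-141266650, minus strand), the Irf8 stretch (chr8:120736168-120736267, plus strand), the Irf1 stretch (chr11:53769883-53769982, plus strand) and the Irf2 stretch (chr8:46739495-46739594, plus strand) are the following.
Irf7: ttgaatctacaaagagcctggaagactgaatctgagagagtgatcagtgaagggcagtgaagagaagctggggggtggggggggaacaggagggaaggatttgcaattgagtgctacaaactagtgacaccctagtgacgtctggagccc
Irf8: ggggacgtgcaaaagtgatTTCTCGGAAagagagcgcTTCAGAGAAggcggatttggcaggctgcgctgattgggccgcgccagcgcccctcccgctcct
Irf1: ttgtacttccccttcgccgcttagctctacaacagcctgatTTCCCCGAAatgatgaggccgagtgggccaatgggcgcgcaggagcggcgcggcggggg
Irf2: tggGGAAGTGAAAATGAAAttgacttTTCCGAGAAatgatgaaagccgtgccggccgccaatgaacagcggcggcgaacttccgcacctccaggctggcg

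In Irf2 the response element core, GAAAATGAAA, began 241 bases before the start and overlapped the composite element, GGAAGTGAAA, and a gamma-activated site, TTCCGAGAA, began 224 bases before the start. Irf8 held gamma-activated sites 171 and 153 bases before its start, and Irf1 held a single such site, TTCCCCGAA, 90 bases before its start. Of the 8 genes, these 3 had a match in the 300 bases around a RefSeq start. Irf7, Irf3, Irf4, Irf5 and Irf9 had none in that window, which says only that these letters are not there. Over all 32851 windows of this length in the table, 3.44% held the response element core, 8.3% the gamma-activated site and 2.72% the composite element. A match describes the sequence and does not show that a factor was bound.

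Of the 7 IRF genes tested, Irf7 and Irf5 rose in CDKO HSC, Irf8 fell, and Irf1, Irf2, Irf3 and Irf9 did not pass the test. The changes were a 4.49-fold higher level of Irf7, a 1.62-fold higher level of Irf5 and a 2.62-fold lower level of Irf8, as ratios of mean CPM. The calls, 3 of 7, stand beside 66.2% of all 13732 genes tested that passed in either direction, 31.1% higher and 35.2% lower. The same 3 genes were the tested members whose CDKO and Control pools did not overlap, where 70.7% of all genes tested had groups that did not overlap, 33.4% with CDKO higher and 37.2% with CDKO lower. The median log2 difference was 0.08 over the 7 tested members and -0.02 over all genes tested.

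**Figure D1:**
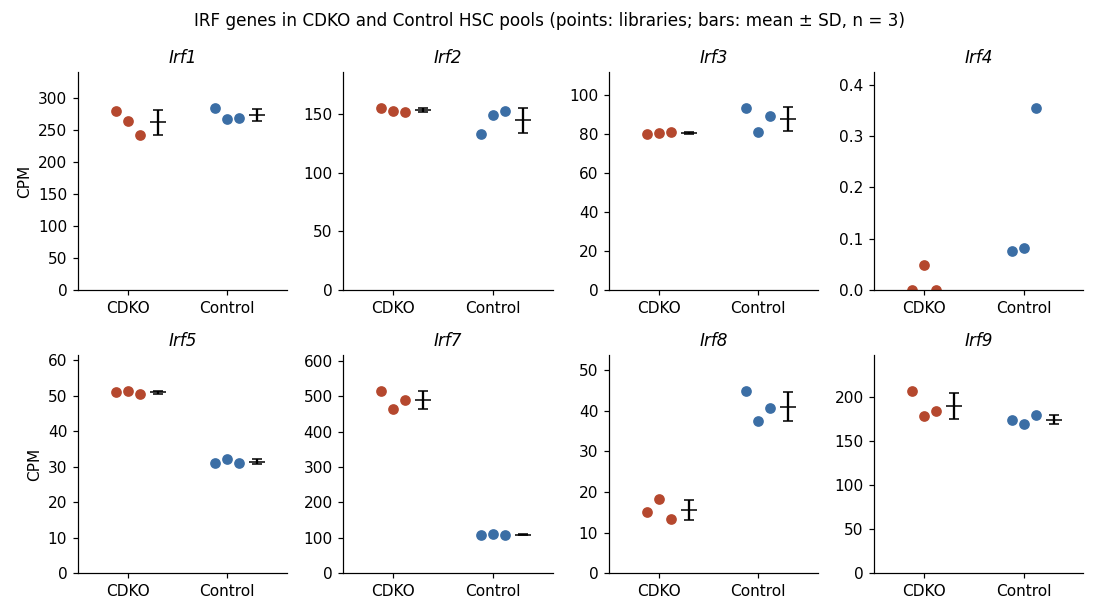
CPM of each IRF gene (vertical axes, linear, starting at 0, with a scale of their own per gene) in the 3 CDKO pools and the 3 Control pools, with points for libraries and bars for mean ± SD (none for Irf4, which is near 0). Irf7 sits at 463 to 513 CPM in CDKO pools and 108 to 111 CPM in Control pools, and Irf8 at 13.5 to 18.2 CPM in CDKO pools and 37.4 to 44.7 CPM in Control pools.

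Irf7 encodes the factor that amplifies type I interferon production once it is phosphorylated. It was at 513, 463 and 489.99 CPM in CDKO pools, against 107.7, 110.8 and 108.0 CPM in Control pools. Every CDKO pool lay above every Control pool, and the gap was many times the spread inside either group. The means were 489 ± 24.97 CPM in CDKO and 108.8 ± 1.75 CPM in Control pools (SD, n = 3 each). The log2 difference was 2.16 (95% interval 2.05 to 2.26, limma adjusted p = 3.74e-10), the 92nd highest among all genes tested. Irf7 spans mm10 chromosome 7 from 141262706 to 141266481 and shares 45 bases at its 3′ end with Phrf1 on the other strand. Phrf1 averaged 172.7 ± 1.91 CPM in CDKO and 160.3 ± 8.51 CPM in Control pools (SD, n = 3 each) and did not pass.

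Irf3 encodes the related factor that is present before infection and starts interferon production. It was at 80.1, 80.5 and 81.0 CPM in CDKO pools, against 93.1, 80.8 and 89.1 CPM in Control pools. Control replicate 2 lay inside the CDKO range and the other Control pools above it. The log2 difference was -0.12 (95% interval -0.25 to 0.01, limma adjusted p = 0.101). Without Control replicate 2 the gene passed, at a log2 difference of -0.18 (limma adjusted p = 0.0255; 0.0255 to 0.512 over the alternatives tried). Irf3 overlaps Bcl2l12 head to head over 1065 bases (chromosome 7, Irf3 from 44997648 to 45002848), and Bcl2l12 averaged 23.05 ± 1.15 CPM in CDKO and 22.8 ± 1.15 CPM in Control pools (SD, n = 3 each).

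The difference in log2(CPM + 1) between Irf7 and Irf3 inside a library was 2.66, 2.51 and 2.58 in CDKO pools, against 0.21, 0.45 and 0.27 in Control pools. All CDKO values were above all Control values, by a mean of 2.27 (2.23 with a pseudocount of 5; exact permutation test, two-sided p = 0.1, the smallest p that 3 against 3 libraries allow).

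Irf5 encodes the factor that acts downstream of toll-like receptors and MYD88 on inflammatory cytokine genes. It was at 51.1, 51.2 and 50.5 CPM in CDKO pools, against 31.0, 32.3 and 31.1 CPM in Control pools. The groups did not overlap and each was tight, with an SD of 0.336 CPM among CDKO pools and 0.722 CPM among Control pools. The log2 difference was 0.68 (95% interval 0.53 to 0.83, limma adjusted p = 6.70e-06). The 3′ end of Irf5 (chromosome 6, 29526625 to 29541871) overlaps Tnpo3 on the other strand over 1045 bases. Tnpo3, a nuclear import gene, was lower in CDKO, at 192.5 ± 8.61 CPM against 242 ± 2.50 CPM in Control pools (SD, n = 3 each, limma adjusted p = 6.11e-05). Whether the counting used strand is not stated, so reads of shared stretches cannot be told apart.

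Irf1 encodes an activator that interferon-gamma induces. It was at 278, 264 and 241 CPM in CDKO pools, against 283, 266 and 268 CPM in Control pools. The groups overlapped, and the log2 difference was -0.06 (95% interval -0.18 to 0.06, limma adjusted p = 0.326). Irf2 encodes the repressor that competes with IRF1 for the same sites. It was at 155, 153 and 152 CPM in CDKO pools, against 133, 149 and 153 CPM in Control pools. Control replicate 1 was the low library, and the log2 difference was 0.08 (95% interval -0.04 to 0.21, limma adjusted p = 0.204). The activator less the repressor, Irf1 minus Irf2 in log2(CPM + 1), was 0.84, 0.79 and 0.66 in CDKO pools, against 1.09, 0.83 and 0.81 in Control pools. These ranges overlapped (difference -0.15, exact permutation test, two-sided p = 0.3).

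Irf9 encodes the DNA-binding subunit of ISGF3, the complex that carries the type I interferon signal to its target genes. It was at 206, 179 and 184 CPM in CDKO pools, against 174, 169 and 179.2 CPM in Control pools. CDKO replicate 2 lay just inside the Control range, and the other CDKO pools lay above it. The log2 difference was 0.12 (95% interval from just under 0 to 0.24, limma adjusted p = 0.0791). It passed without CDKO replicate 2 (limma adjusted p = 0.0382), when GC and length of transcripts were corrected for (adjusted p = 0.0242, limma) and with DESeq2 on reads (adjusted p = 0.0281), over a range of 0.0242 to 0.313 across all alternatives. In the authors' deposited table the adjusted p of Irf9 was 0.0581. The first bases of Irf9 (chromosome 14, 55603571 to 55610030) overlap the end of Rnf31 on the same strand over 123 bases, and Rnf31 was lower in CDKO, at 62.9 ± 6.09 CPM against 85.3 ± 6.50 CPM in Control pools (SD, n = 3 each, limma adjusted p = 0.000486).

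**Figure D2:**
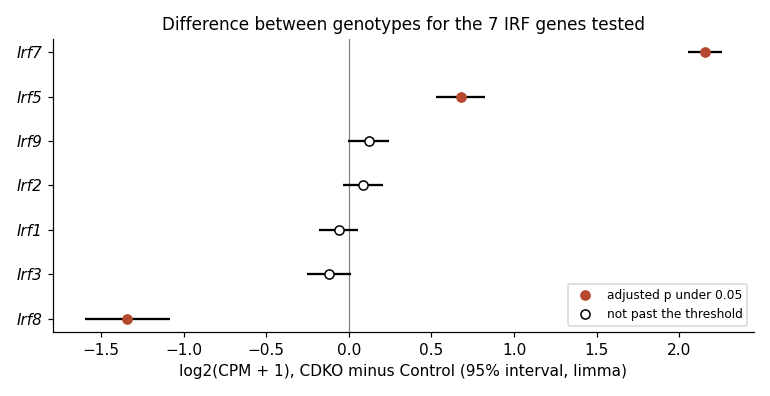
Difference in log2(CPM + 1), CDKO minus Control (horizontal axis), for the 7 IRF genes tested, with 95% intervals from limma; filled points passed the adjusted p threshold of 0.05. Irf7 at 2.16 and Irf5 at 0.68 lie right of 0, Irf8 at -1.34 lies left, and the intervals of the other 4 genes include 0.

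Irf8 encodes the factor that with PU.1 directs progenitors toward monocytes and dendritic cells and away from neutrophils. It was at 15.2, 18.2 and 13.5 CPM in CDKO pools, against 44.7, 37.4 and 40.7 CPM in Control pools. All CDKO pools lay below all Control pools. The log2 difference was -1.34 (95% interval -1.60 to -1.09, limma adjusted p = 2.70e-06), the 665th lowest among all genes tested. The reads behind it numbered 499 to 755 in CDKO libraries and 1364 to 1747 in Control libraries. In GENCODE M21 a protein-coding gene model on the same strand, Gm20388, covers all 20337 bases of Irf8. Which annotation and counting mode were used is not given in the sources used here, so whether reads of Irf8 were lost or shared is unknown. Leaving out each library in turn moved the difference between -1.45 (without CDKO replicate 2) and -1.25 (without CDKO replicate 3).

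Irf4, the close relative of Irf8 that lymphocytes use, was almost silent. It had 0, 2 and 0 reads in CDKO libraries, against 3, 3 and 15 reads in Control libraries. Most of its Control reads were in replicate 3. Irf4 did not pass the filter on low values, and no fold is given. With no filter its difference in log2(CPM + 1), which at this level depends on the pseudocount, was -0.20 (limma adjusted p = 0.110). With Irf4 at 0 to 2 reads in CDKO libraries, no ratio of Irf8 to Irf4 is given.

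Markers of other blood cells were counted in the same pools, where 31.1% of all genes tested rose and 35.2% fell. Of 13 neutrophil markers tested 11 fell and 0 rose, and their summed level was 239.7 to 407 CPM in CDKO pools and 1163 to 1429 CPM in Control pools. Of 10 monocyte and macrophage markers tested 5 rose and 5 fell, with sums of 93.6 to 100.1 CPM in CDKO and 93.5 to 104.7 CPM in Control pools. Of 8 conventional dendritic cell markers tested 3 rose and 4 fell, with sums of 1566 to 1716 CPM in CDKO and 1167 to 1276 CPM in Control pools, most of it from class II genes. Of 5 plasmacytoid dendritic cell markers tested 1 rose and 4 fell, with sums of 380.1 to 385 CPM in CDKO and 421 to 453 CPM in Control pools. Most of that sum came from Tcf4, Bst2 and Runx2, of which Bst2 rose, and Tlr7 was at 0 in all libraries. Of 7 erythroid markers tested 6 fell and 0 rose, with sums of 51.5 to 88.6 CPM in CDKO and 483 to 546 CPM in Control pools. Of 8 basophil and mast cell markers tested 6 fell and 0 rose, with sums of 479.8 to 498 CPM in CDKO and 717 to 762 CPM in Control pools, most of it from Gata2. Of 6 T and NK cell markers tested 5 rose and 0 fell, with sums of 116.6 to 126.2 CPM in CDKO and 74.5 to 79.3 CPM in Control pools, and Cd3e, Cd3g and Cd8a were at 0 in all libraries. Of 7 B cell markers tested 2 rose and 3 fell, with sums of 58.5 to 61.8 CPM in CDKO and 47.5 to 56.8 CPM in Control pools, and Pax5, Ms4a1 and Rag1 were at 0 in all libraries. The share of B cell markers called, 71.4%, was near the 66.2% called over all genes tested.

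Single dendritic cell genes did not move together. Itgax (CD11c) was at 0.0304, 1.11 and 0 CPM in CDKO pools, against 7.21, 7.65 and 6.49 CPM in Control pools. Siglech was at 0, 1.23 and 0 CPM in CDKO pools, against 2.53, 2.80 and 4.16 CPM in Control pools. Xcr1 and Clec9a fell as well (log2 differences -1.63 and -1.08), and Tcf4 had a log2 difference of -0.22 at a mean of 180.8 CPM in CDKO and 210.8 CPM in Control pools. The plasmacytoid markers Runx2 and Ly6d also fell, with log2 differences of -1.08 and -1.15. Runx2 had a mean of 68.8 CPM in CDKO and 146.7 CPM in Control pools, and Ly6d was low in both groups, at 0.136 and 1.51 CPM. Zbtb46 did not pass, at a mean of 8.16 CPM in CDKO and 8.64 CPM in Control pools. The genes that rose were the class II genes H2-Aa, H2-Ab1 and Cd74, and Bst2, which is also on the list of ISGF3 targets below. The part of other cells in the Irf8 difference was not tested.

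Set on a scale per length, CPM per kb of the longest transcript, the order of the family differed at its top. In CDKO pools Irf7 was first at 150.8 ± 7.71 CPM per kb, ahead of Irf1 at 122 ± 8.79, and their ranges did not overlap. In Control pools Irf1 was first at 127.5 ± 4.41 CPM per kb and Irf7 had rank 5 at 33.6 ± 0.541 (SD, n = 3 each). The neighbours Irf9 and Irf3 overlapped in Control pools, at 43.7 to 46.3 and 39.8 to 45.8 CPM per kb, and so did Irf2 and Irf7, at 33.5 to 38.6 and 33.2 to 34.2. Irf5, Irf8 and Irf4 filled the last places in both groups, in that order. With the summed length of all exons in place of the longest transcript, Irf7 was first in CDKO pools and had rank 3 in Control pools. The summed exons of Irf7, 3776 bases, fill its whole span, so gene models that keep introns are among them. Its longest transcript has 3240 bases, and whether that model is fully spliced was not checked. If the mRNA is shorter, both scales understate the level and share of Irf7 in both groups, and may understate its rank in Control pools.

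Summed over the 8 genes, the level was 416 to 448 CPM per kb in CDKO pools and 305 to 317 CPM per kb in Control pools. The sum of the 7 genes other than Irf7 was 265 to 289 CPM per kb in CDKO pools and 271 to 284 CPM per kb in Control pools, so these ranges overlapped. Irf7 supplied 34.1% to 36.3% of the sum in CDKO pools and 10.5% to 11.2% in Control pools. By summed exon length those shares were 42.8% to 45.1% in CDKO pools and 14.7% to 15.6% in Control pools. The limit on the length of Irf7 given above applies to both sets of shares.

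**Figure D3:**
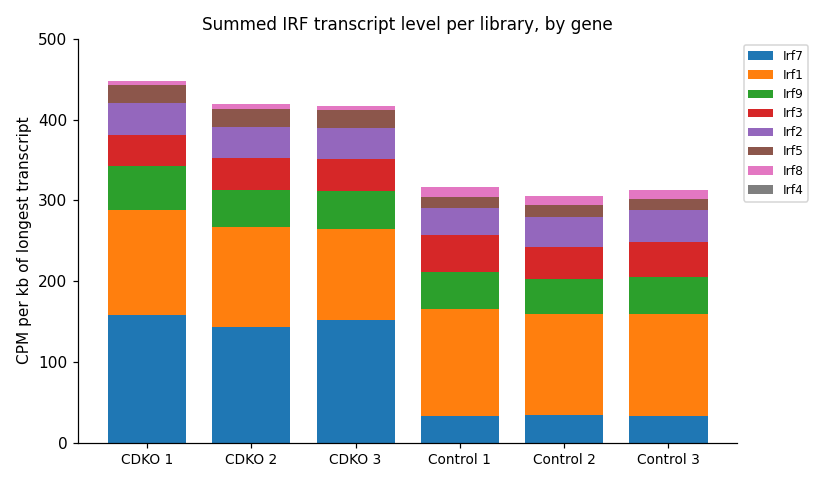
Level of each IRF gene in CPM per kb of its longest transcript, stacked by gene (vertical axis, from 0) for each of the 3 CDKO and 3 Control libraries. The Irf7 segment is 34.1% to 36.3% of the stack in CDKO libraries and 10.5% to 11.2% in Control libraries, and the rest of the stack has overlapping heights. The share depends on the length taken for Irf7.

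Among all 9885 tested genes with a mean of at least 10 CPM, the 3 whose centred log2(CPM + 1) values lay closest to those of Irf7 over the 6 libraries were Ifit1 (root mean square difference 0.06), Oas2 (0.07) and Ier5 (0.08). Those closest to Irf5 were Sec23ip, Lonrf1 and Capn2 (each at 0.03), and those closest to Irf8 were Dpp7 (0.05), Ttl (0.07) and AI854703 (0.08). In a design of 2 groups this measure follows mostly the difference between the groups.

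Interferon genes themselves, the ligands upstream of the response, were not detected apart from traces. Of 21 ligand genes listed, 18 had 0 reads in all libraries, among them Ifnb1 and Ifng. Ifnz, the limitin gene of the type I family, was the single ligand gene tested, and it was at 0.882, 1.13 and 0.701 CPM in CDKO pools, against 0.230, 0.302 and 0.236 CPM in Control pools (log2 difference 0.60, limma adjusted p = 0.00466). The Ifna genes are near-identical copies, and how reads that match several genes were counted is not stated, so a count of 0 there is uncertain.

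Genes of the interferon receptors and their relay to the nucleus did not move together. Stat2, a partner of IRF9 in ISGF3, rose and was at 283, 279 and 309 CPM in CDKO pools, against 189, 183 and 181 CPM in Control pools (log2 difference 0.65, limma adjusted p = 9.78e-07). Ifngr2 and Ifngr1, the chains of the interferon-gamma receptor, rose by 0.64 and 0.33 on the log2 scale. Jak1, the kinase shared by both interferon receptors, fell and was at 601.5, 598 and 595 CPM in CDKO pools, against 886, 870.3 and 843 CPM in Control pools. The receptor genes Ifnar1 and Ifnar2 and the kinase genes Jak2 and Tyk2 had log2 differences between -0.08 (Jak2) and 0.08 (Ifnar1) and did not pass.

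Genes whose proteins switch on IRF3, IRF5 or IRF7 went both ways. Of 18 tested 8 rose, 6 fell and 4 did not pass, with a median log2 difference of 0.02. Of all genes tested, 31.1% rose and 35.2% fell, and 66.2% were called in either direction. The RNA sensors Tlr3, Ddx58 (RIG-I) and Ifih1 (MDA5) and the nucleic acid sensor Zbp1 rose. Tlr3 was at 17.9, 19.0 and 15.1 CPM in CDKO pools, against 1.25, 1.21 and 1.04 CPM in Control pools, and its adaptor gene Ticam1 rose by 0.88 on the log2 scale. Traf3, an adaptor that brings the kinase TBK1 to these sensors, fell and was at 34.1, 42.9 and 37.5 CPM in CDKO pools, against 79.9, 93.1 and 86.8 CPM in Control pools (limma adjusted p = 1.08e-06). The kinase genes that phosphorylate IRF3 and IRF7 moved apart, with Tbk1 higher (log2 difference 0.32) and Ikbke lower (-0.35). For Ikbke the groups overlapped, with CDKO replicate 2 at 60.2 CPM above Control replicate 3 at 59.2 CPM. Several of the sensors are interferon targets as well as activators. Of the endosomal receptors that signal through MYD88 to IRF5 and IRF7, Tlr7 and Tlr8 had 0 reads in all libraries and Tlr9 had traces that did not pass the filter.

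Of 15 genes tested that restrain IRFs or interferon signalling 10 rose, 4 fell and 1 did not pass, with a median log2 difference of 0.27, where 31.1% of all genes tested rose and 35.2% fell. Usp18, which blocks signalling at the type I receptor, was at 155.3, 142 and 157 CPM in CDKO pools, against 82.3, 84.3 and 78.7 CPM in Control pools (log2 difference 0.88, limma adjusted p = 3.63e-07). Socs1, an inhibitor of JAK kinases that is also on the list of IRF1 targets, rose by 0.73 on the log2 scale, Cyld by 0.53 and Nlrc3 by 1.67. The genes of the IRF2-binding proteins did not move together. Irf2bp1 and Irf2bp2 rose by 0.23 and 0.29 on the log2 scale (limma adjusted p = 0.00366 and 0.0182). Irf2bpl fell and was at 14.0, 20.1 and 19.0 CPM in CDKO pools, against 28.5, 31.0 and 32.6 CPM in Control pools.

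Targets of ISGF3 rose in 21 of 22 genes tested, with a median log2 difference of 1.38 beside -0.02 over all genes tested, of which 31.1% rose. The exception, Parp14, had a log2 difference of -0.02 and did not pass. Ifit3, an antiviral gene, was at 118, 105 and 116 CPM in CDKO pools, against 11.9, 11.8 and 10.5 CPM in Control pools. Oas2, Ifit1 and Oas3 were the other genes with the smallest p and rose by 2.26, 2.24 and 1.70 on the log2 scale. Of the genes of ISGF3 itself, Irf9 had a log2 difference of 0.12 and Stat2 one of 0.65.

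Known targets of IRF1, mostly genes of antigen presentation and guanylate-binding proteins, rose in 12 of 17 genes tested and fell in 3, with a median log2 difference of 0.24, where 31.1% of all genes tested rose and 35.2% fell. Irf1 itself had a log2 difference of -0.06. Gbp3 was at 193, 179.2 and 194 CPM in CDKO pools, against 113, 108 and 113 CPM in Control pools. Tapbp and Tap1, which load peptide onto class I molecules, rose by 0.38 on the log2 scale each, and Gbp2 by 0.48. Ciita and Tap2 were among those that fell.

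Partners and targets of IRF8 also went both ways, with 7 of 14 tested higher, 3 lower and 4 not past the threshold (median log2 difference 0.21). The share called, 71.4%, was near the 66.2% called over all genes tested. Spi1, the gene of PU.1, was at 109.5, 119.9 and 115 CPM in CDKO pools, against 94.5, 98.1 and 100.003 CPM in Control pools (log2 difference 0.23, limma adjusted p = 0.00229). Cybb, the phagocyte oxidase subunit that IRF8 and PU.1 activate, was at 7.46, 6.73 and 9.16 CPM in CDKO pools, against 20.2, 21.9 and 20.0 CPM in Control pools (log2 difference -1.32, limma adjusted p = 6.46e-06). Csf1r, which encodes the M-CSF receptor of macrophages, was at 23.4, 21.0 and 20.1 CPM in CDKO pools, against 3.94, 2.93 and 2.79 CPM in Control pools. Klf4, a monocyte factor downstream of IRF8, and Bcl6 rose by 1.34 and 1.06 on the log2 scale.

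**Figure D4:**
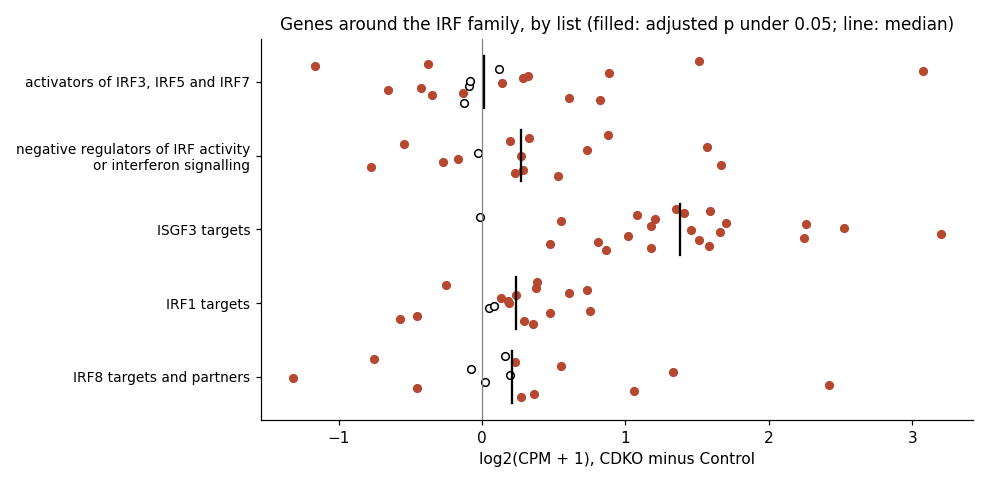
Difference in log2(CPM + 1), CDKO minus Control (horizontal axis), for each tested gene of 5 lists around the IRF family (rows); filled points passed the adjusted p threshold of 0.05 and black lines are list medians. The ISGF3 targets have a median of 1.38, and the medians of the other lists lie between 0.02 and 0.27.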

How the data were processed

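RNA was extracted with micro columns, amplified with a SMARTer ultra low input kit and made into Nextera XT libraries, per the labels. TopHat2, HTSeq and DESeq2 are named without versions, with build mm10, per the submitters' processing notes. The gene annotation and the counting mode are not given in the sources used here. The deposited values are CPM, scaled by the authors to each library's gene total. Dividing by the smallest step gave whole reads for 99.9989% of values above 0 (tolerance 0.01 read). Also deposited are the authors' DESeq2 columns: baseMean, a signal after size factor scaling, the log2 fold change of Control over CDKO with its error, a score (fold over error), and p-values with adjusted p-values.

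Of 24062 genes, 7104 had no read, 12 rows carried a date as symbol and 2 shared a symbol, and the rows with a date or a shared symbol, 14 in all, were left out. Genes with a mean of at least 10 recovered reads were tested with limma 3.58.1 (R 4.3.3) on log2(CPM + 1), two-sided, with a mean-variance trend and no other term. The labels do not say that pools were prepared separately, so p-values measure the spread between these libraries. Differences in log2(CPM + 1) between IRF genes of a library were compared by exact permutation over libraries. Alternatives were other filters, scalings, pseudocounts and thresholds, each library left out, a replicate block, a loess correction for GC content and transcript length (GENCODE M21, 95.2% of tested genes), and count tests on the recovered reads. Of these, edgeR 4.0.16 called 8787 genes and DESeq2 1.42.0 called 9506, against 9096 with limma. The limma step was also run on simulated data in which far fewer genes changed than were called here. That run does not measure the error rate in these data.

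All IRF genes were named whatever their values. From each list up to 4 genes with the smallest p were named, and the receptor list; a few genes of the lists are not reported here. Other list genes (Ticam1, Ifih1, Tbk1, Ikbke, the IRF2-binding protein genes, Spi1, genes that fell or did not pass, and markers) were picked with their values in view. The members and lists were chosen with earlier results of these data known. Some genes are shared between lists, among them Socs1, Ciita and Bst2, so the counts of the lists are not independent. RefSeq gave the promoter sequences of all 8 genes.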

Additional observations from a re-analysis of the deposited data

How the results depend on the processing

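Irf7, Irf5 and Irf8 kept direction and call under all 19 alternatives, with log2 differences of 2.12 to 2.26, 0.62 to 0.75 and -1.45 to -1.16. Irf1 and Irf2 passed under none of them. Irf9 passed after the correction for GC content and length (0.18), with DESeq2 (0.14) and at an adjusted p threshold of 0.1 (0.12). Leaving out a library at a time moved the log2 difference between 0.0586 and 0.161 for Irf9 and between -0.176 and -0.0755 for Irf3, and the count of IRF genes called between 2 and 3 higher and between 1 and 2 lower. The differences between Irf7 and Irf3 and between Irf1 and Irf2 inside a library kept their direction under the other pseudocounts and with each library left out. Over all genes, 1645 rose and 2354 fell by at least 1.5-fold, against 4264 and 4832 without a minimum, and quantile normalization gave 4664 higher and 4461 lower. List counts stayed within 1.5 times of the main count in 55 of 56 repeats. The exception was the interferon ligands, of which 0 were called at a mean of at least 10 CPM, since none was then tested. Replicate numbers do not pair the libraries by the labels. Deviations of libraries with the same number correlated at 0.0518, 0.0483 and -0.0120, and CDKO replicate 3 did not correlate best with its own number. A replicate block called 4347 genes higher and 4894 lower and changed no IRF call (Irf9 adjusted p = 0.0522, limma). Depth limits Irf4, with at most 15 reads in a library.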

Other observations

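Class II antigen presentation genes rose in the pools where Ciita, their master regulator and a target of IRF1 and IRF8, was lower. Cd74 was at 955.5, 850.1 and 865 CPM in CDKO pools, against 624, 551 and 626 CPM in Control pools (log2 difference 0.57, limma adjusted p = 9.19e-06). H2-Aa and H2-Ab1 rose by 0.40 and 0.37 on the log2 scale. Ciita was at 19.5, 23.1 and 18.6 CPM in CDKO pools, against 32.9, 26.5 and 25.9 CPM in Control pools (log2 difference -0.46, limma adjusted p = 0.00524). Other dendritic cell genes went both ways, as given above, and the part of other cells was not tested.

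Socs3, an inhibitor of STAT3 signalling, rose (log2 difference 1.57, limma adjusted p = 0.00388) but varied widely inside both groups. It was at 26.8, 29.9 and 49.3 CPM in CDKO pools, against 6.03, 24.96 and 8.10 CPM in Control pools. Spib, the gene of an ETS factor related to PU.1, had 0 reads in CDKO libraries and 0.307, 0.850 and 0.992 CPM in Control libraries. The lncRNA Gm16675, which starts 217 bases from Irf2 on the other strand, was lower in CDKO, at 3.03 ± 0.178 CPM against 4.50 ± 0.952 CPM in Control pools (SD, n = 3 each, limma adjusted p = 0.0332), while Irf2 did not pass.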
